A study of Mus musculus with 56 samples.

Results

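Of 6795 named genes measured in mouse keratinocytes, 4 are described here: S100a4, Cdh2, Twist1 and Snai2. They were selected on their measured ratios, above all at 48 h in primary cells and at 6 h in ras cells, as genes of a mesenchymal shift, and found through the platform annotation. Each was read by 1 probe that lists no other gene, and a further probe that lists Cdh2 together with another gene was left out.

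Keratinocytes form most of the epidermis, and those studied came from the skin of newborn mice. They were used as primary cultures, or after infection with a Ha-ras retrovirus as what are called ras cells below, the oncogene being carried by a virus that cannot replicate. Each of 56 arrays set RNA of cells given transforming growth factor β1 (TGF-β1, 1 ng/ml) against RNA of the untreated counterpart, in 2 colours. All ras comparisons thus had the oncogene in treated and untreated cells alike. Balb/c cells were treated for 1, 6, 24 or 48 h (50 arrays), and cells of the strain labelled C57B1/SVJ, either Smad3+/+ or Smad3-/-, for 48 h (6 arrays). Balb/c arrays with the treated RNA in Cy5 numbered 6, 7, 6 and 3 in primary cells at the 4 times, and 6, 7, 6 and 4 in ras cells. The labels do not say which arrays come from separate cultures, so errors and p-values measure the spread between arrays, which may be technical. A ratio carries no level, so neither the keratinocyte markers nor the absolute abundance of these 4 RNAs could be checked.

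In a change from an epithelial to a mesenchymal state, cells exchange the cadherins of their junctions, loosen from their neighbours and take up matrix and cytoskeletal genes of connective tissue. TGF-β is a classic inducer of this change, acting through receptor kinases and the transcription factors Smad2, Smad3 and Smad4. In the epidermis it also stops keratinocytes from dividing. Cdh2 encodes N-cadherin, the cell adhesion molecule of mesenchymal and neural cells. S100a4, also called fibroblast-specific protein, is a small calcium-binding protein of motile cells. Twist1, a basic helix-loop-helix factor, and Snai2 (Slug), a zinc finger factor, both bind E-box sequences and can repress epithelial genes.

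The sequence before the gene start is shown for S100a4 and Twist1, which were high together at 48 h and are held by the RefSeq promoter table (GRCm38.p6). Each line gives 250 bases that end just before the annotated start, read 5′ to 3′ on the strand of the gene, with the Smad-binding letters CAGAC (or GTCTG on the other strand) in capitals. For S100a4 the window is chr3:90603520-90603769 (plus strand), and for Twist1 it is chr12:33957421-33957670 (plus strand).
S100a4: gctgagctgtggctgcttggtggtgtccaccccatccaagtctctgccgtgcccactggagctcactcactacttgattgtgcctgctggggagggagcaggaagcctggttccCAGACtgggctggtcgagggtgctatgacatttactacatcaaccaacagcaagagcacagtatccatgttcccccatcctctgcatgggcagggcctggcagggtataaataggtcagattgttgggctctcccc
Twist1: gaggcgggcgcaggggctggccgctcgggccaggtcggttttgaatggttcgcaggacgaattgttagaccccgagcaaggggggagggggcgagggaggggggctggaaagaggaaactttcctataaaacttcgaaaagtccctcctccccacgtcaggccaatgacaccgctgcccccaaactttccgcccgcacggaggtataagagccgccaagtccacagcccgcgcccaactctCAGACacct
Each window held CAGAC 1 time, beginning 136 bases before the start in S100a4 and 9 bases before it in Twist1. Windows of the same length held CAGAC on either strand for 42.2% of 32851 promoters, so a match is common. The E-box letters CANNTG, searched on both strands since they read alike on each, were in neither window and in 66.2% of all promoters. The Snail-type E-box CAGGTG, or CACCTG on the other strand, is a subset of these and was in 17.2% of all promoters. A match is a description of the letters and not a binding site.

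All values below are log2 ratios, likely treated over untreated from the order of the channels in the labels, after each array was centred on its median. On 7 further arrays the labels put the treated RNA in Cy3 instead of Cy5 (reversed arrays), and whether the deposited sign was turned for them is not given in the sources used here. Among the 50 features with the smallest p in their own group, the 5 reversed Balb/c arrays had the deposited sign of the Cy5 arrays for 0 at ras 6 h, 10 at ras 24 h, 1 and 8 at primary 48 h and 26 at ras 48 h. On the 2 reversed Smad3-/- arrays the matching counts, against the Balb/c features of 48 h, were 38 and 33. Clu, Csf1, Sprr2a1 and Fabp5 moved strongly at primary 48 h. On all 5 reversed Balb/c arrays they had the sign opposite to the Cy5 mean of the group, as unturned ratios would. For Sprr2a1 the Cy5 mean was -2.33 at primary 48 h, against 4.21 and 3.00 on the reversed arrays. At ras 48 h it was -2.225, against 3.20. The reversed arrays were therefore left out of means and tests and are given as deposited beside the results. An additional fit, chosen after seeing the data, turned the 5 reversed Balb/c arrays and gave every gene a term for its bias towards 1 dye. Array SDs over all probes ran from 0.194 to 1.81, the widest being replicate 1 of ras 24 h and replicate 1 of primary 6 h. No 2 arrays correlated above 0.654 over all probes.

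S100a4, Cdh2 and Twist1 were high at 48 h in primary cells, while Snai2 did not follow them. Their means at 1 to 24 h in these cells lay between -0.30 and 0.38, the highest being that of Cdh2 at 24 h, and none was called. The contrast at 48 h served in choosing the genes, so its values are a description without a test. In bulk RNA, a change in RNA per cell and a change in the share of cells of a type cannot be told apart.

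**Figure D1:**
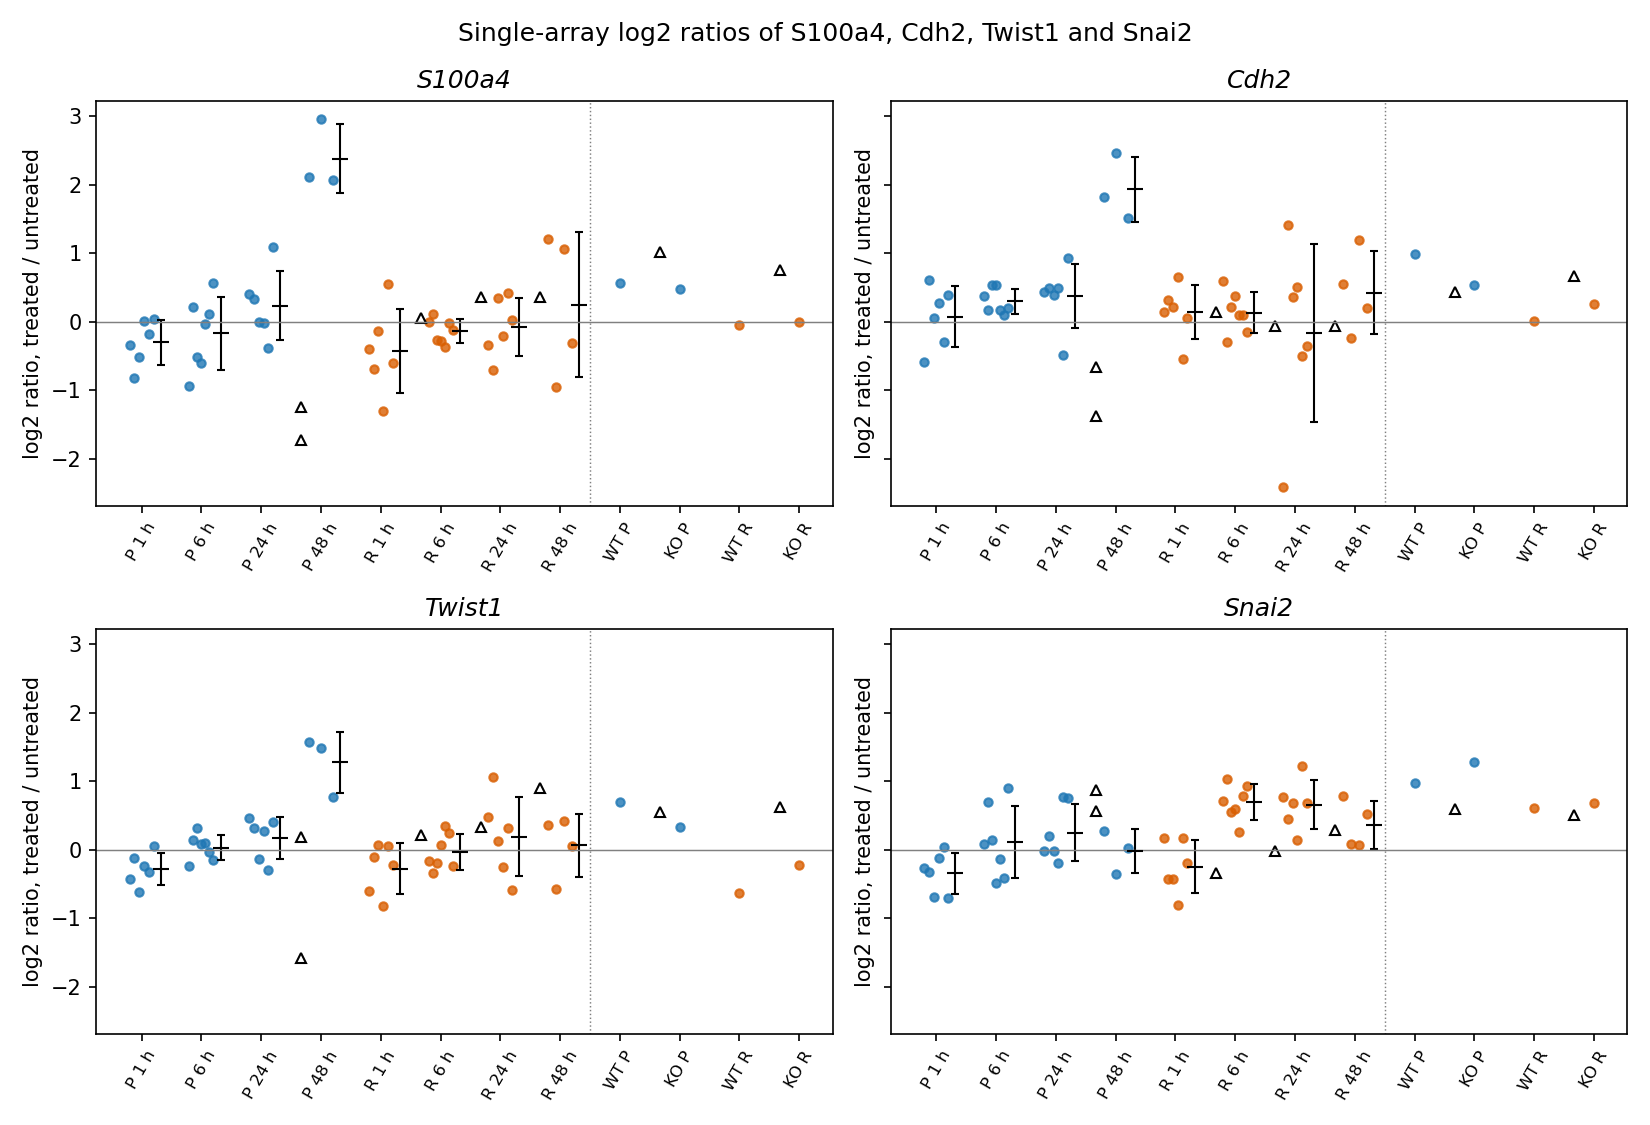
Log2 ratio of treated over untreated RNA (y axis) for each gene on every array, by group (x axis): P primary and R ras Balb/c cells at 1 to 48 h, then Smad3+/+ (WT) and Smad3-/- (KO) cells at 48 h. Filled points are Cy5 arrays (blue primary, orange ras), triangles are reversed arrays as deposited, and black bars are the mean ± SD of the Cy5 arrays. The 3 primary 48 h points of S100a4 lie between 2.07 and 2.96, above all other Balb/c points, while the Snai2 points there lie around 0.

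S100a4 reached 2.12, 2.96 and 2.07 on the 3 Cy5 arrays of primary cells at 48 h, a mean of 2.38 ± 0.50 (SD, n = 3), or 5.22-fold. All 3 arrays were above every other Balb/c array, of which the highest, 1.21, was replicate 1 of ras 48 h. Its mean ranked 13 from the top of 8905 features. The 2 reversed arrays of the group stood at -1.73 and -1.24 as deposited, so they were the lowest of the group and far from the Cy5 arrays unless their sign is turned.

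Cdh2 reached 1.82, 2.46 and 1.52 on the same arrays, a mean of 1.94 ± 0.48 (SD, n = 3), or 3.82-fold. The lowest of these was just above the highest other Balb/c array, a ras 24 h array at 1.42, and the mean ranked 27 of 8905 features. The reversed arrays read -1.37 and -0.65 as deposited.

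Twist1 reached 1.58, 1.48 and 0.77, a mean of 1.28 ± 0.45 (SD, n = 3), or 2.42-fold. It ranked 120 of 8905 features, and its lowest array overlapped the highest array of ras 24 h, at 1.06. Its reversed arrays differed from each other, at -1.58 and 0.19 as deposited, so turning the sign would leave replicate 4 below 0.

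Snai2 gave 0.28, -0.36 and 0.03 at primary 48 h, a mean of -0.01 ± 0.32 (SD, n = 3), and ranked 4236 of 8905 features. Its arrays lay on both sides of 0. The reversed arrays read 0.87 and 0.56 as deposited, the opposite pattern to S100a4 and Cdh2 on those arrays. For scale, 24.3% of all features were above 0 on all 3 Cy5 arrays of primary cells at 48 h, as S100a4, Cdh2 and Twist1 were, and 8.6% were called in either direction. Called means a limma p, adjusted by Benjamini and Hochberg's method over the 8905 features, below 0.05.

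With the reversed Balb/c arrays turned and a dye term, the primary 48 h means were lower for all 4 genes. S100a4 came to 1.98 (SE 0.23), Cdh2 to 1.53 (SE 0.26), Twist1 to 0.99 (SE 0.18) and Snai2 to -0.36 (SE 0.17). The estimated bias towards Cy5 was 0.20 for Cdh2, 0.24 for S100a4, 0.28 for Twist1 and 0.30 for Snai2 on the log2 scale. These lay at the percentiles 84.3, 90.1, 94.7 and 96.4 of all features, so the estimate was above that of most features for each of the 4 probes. Added as deposited instead, the 2 reversed arrays brought S100a4 to 0.84, Cdh2 to 0.76 and Twist1 to 0.49. These means mix opposite signs if the deposited ratios of the reversed arrays were left unturned.

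Before 48 h, none of the 4 genes was called in primary cells. At 24 h, 1.36% of all features were called. S100a4 ranged from -0.39 to 1.09 over 6 arrays with a median of 0.17, a mean of 0.24 (SE 0.21, limma adjusted p = 0.889). Cdh2 ranged from -0.48 to 0.93 with a median of 0.46, a mean of 0.38 (SE 0.24, limma adjusted p = 0.712). Both had arrays on either side of 0, S100a4 with 4 of 6 above it and Cdh2 with 5 of 6.

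Twist1 at primary 24 h ranged from -0.29 to 0.47 with a median of 0.30, a mean of 0.18 (SE 0.15, limma adjusted p = 0.864). Snai2 ranged from -0.19 to 0.77 with a median of 0.10, a mean of 0.25 (SE 0.16, limma adjusted p = 0.692). The arrays of both genes straddled 0. With arrays weighted by their quality, Cdh2 at 0.44 (limma adjusted p = 0.0104) and Twist1 at 0.28 (limma adjusted p = 0.0483) were called at 24 h. That fit called 835 of 8905 features at primary 24 h, against 121 in the main fit.

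At 6 h in primary cells, where 0.0112% of all features were called, Cdh2 was above 0 on 7 of 7 arrays, from 0.096 to 0.54 with a median of 0.20. Of all features, 0.876% were above 0 on all 7 of these arrays, and the mean of 0.30 (SE 0.22) did not pass the test (limma adjusted p = 0.797). S100a4 ran from -0.94 to 0.57 around a mean of -0.17, Twist1 from -0.23 to 0.32 around 0.03 and Snai2 from -0.48 to 0.91 around 0.11. At 1 h all means of both cell types lay between -0.43 and 0.14, none was called, and 0.0112% of all features were called in primary cells and 0.0786% in ras cells. S100a4, Twist1 and Snai2 were below 0 on most arrays at 1 h in both cell types, for example on 5 of 6 ras arrays for S100a4, from -1.29 to 0.55.

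In ras cells, S100a4, Cdh2 and Twist1 were called at none of the tested times, and at 48 h their arrays disagreed in sign. S100a4 read 1.21, -0.95, 1.07 and -0.31 on the 4 Cy5 arrays, with a mean of 0.25 ± 1.06 (SD, n = 4, limma adjusted p = 0.671). Replicates 1 and 3 were high and replicates 2 and 4 below 0. The reversed array read 0.36 as deposited.

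Cdh2 read 0.55, -0.23, 1.19 and 0.20 at ras 48 h, with a mean of 0.43 ± 0.60 (SD, n = 4, limma adjusted p = 0.481). Twist1 read 0.36, -0.58, 0.42 and 0.063, with a mean of 0.066 ± 0.46 (SD, n = 4, limma adjusted p = 0.911). Replicate 2 was the only array below 0 for both genes, and it was the lowest for S100a4 as well. The reversed array read -0.062 for Cdh2 and 0.91 for Twist1 as deposited. At this time 3.5% of all features were called.

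At 24 h in ras cells, where 10.5% of all features were called, Cdh2 spread widest. It ran from -2.42 to 1.42 with a median of 0.0025 and a mean of -0.16 ± 1.30 (SD, n = 6, limma adjusted p = 0.752). The low value was replicate 1, the array with the widest spread over all probes, and the mean without the widest arrays was 0.29. S100a4 ran from -0.70 to 0.43, with a mean of -0.07 (SE 0.21), and Twist1 from -0.58 to 1.06, with a mean of 0.19 (SE 0.15). Both had arrays above and below 0.

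Snai2 was the exception in ras cells, with positive ratios at 6, 24 and 48 h on every Cy5 array. At 6 h, a time used in choosing the gene and thus without a test, its 7 arrays ran from 0.26 to 1.04 with a median of 0.71. The mean was 0.70 ± 0.26 (SD, n = 7), or 1.62-fold, and ranked 97 of 8905 features. The other 3 genes had means between -0.13 and 0.14 on the same arrays. Of all features, 4.27% were above 0 on all 7 arrays and 1.73% were called.

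At 24 h Snai2 ran from 0.14 to 1.22 over 6 ras arrays with a median of 0.69. The mean of 0.66 ± 0.36 (SD, n = 6), or 1.58-fold, was called (limma adjusted p = 0.00789), the only call among 24 tested responses of the 4 genes, of which 2 had an unadjusted limma p under 0.05. The rule that named the genes covers all arrays, so the p-values at this and the other times are not independent evidence for genes chosen by their ratios. Of all features, 3.84% were called higher at that time and 5.57% were above 0 on every array. Leaving out each array in turn gave means of 0.55 to 0.76 and kept the call.

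At 48 h Snai2 read 0.79, 0.082, 0.070 and 0.53 in ras cells, with a mean of 0.37 ± 0.35 (SD, n = 4, limma adjusted p = 0.305). All 4 were above 0, as were 14.2% of all features, but replicates 2 and 3 only just.

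The reversed ras arrays read -0.33 at 6 h, -0.017 at 24 h and 0.30 at 48 h for Snai2 as deposited. With the reversed Balb/c arrays turned and a dye term, its means were 0.43 (SE 0.15) at 6 h, 0.35 (SE 0.16, limma adjusted p = 0.366) at 24 h and 0.053 (SE 0.18) at 48 h. The call at 24 h was therefore lost in that fit. It was also lost with arrays scaled to 1 spread (0.55, limma adjusted p = 0.058) and with the ras 24 h arrays fitted alone (limma adjusted p = 0.272).

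**Figure D2:**
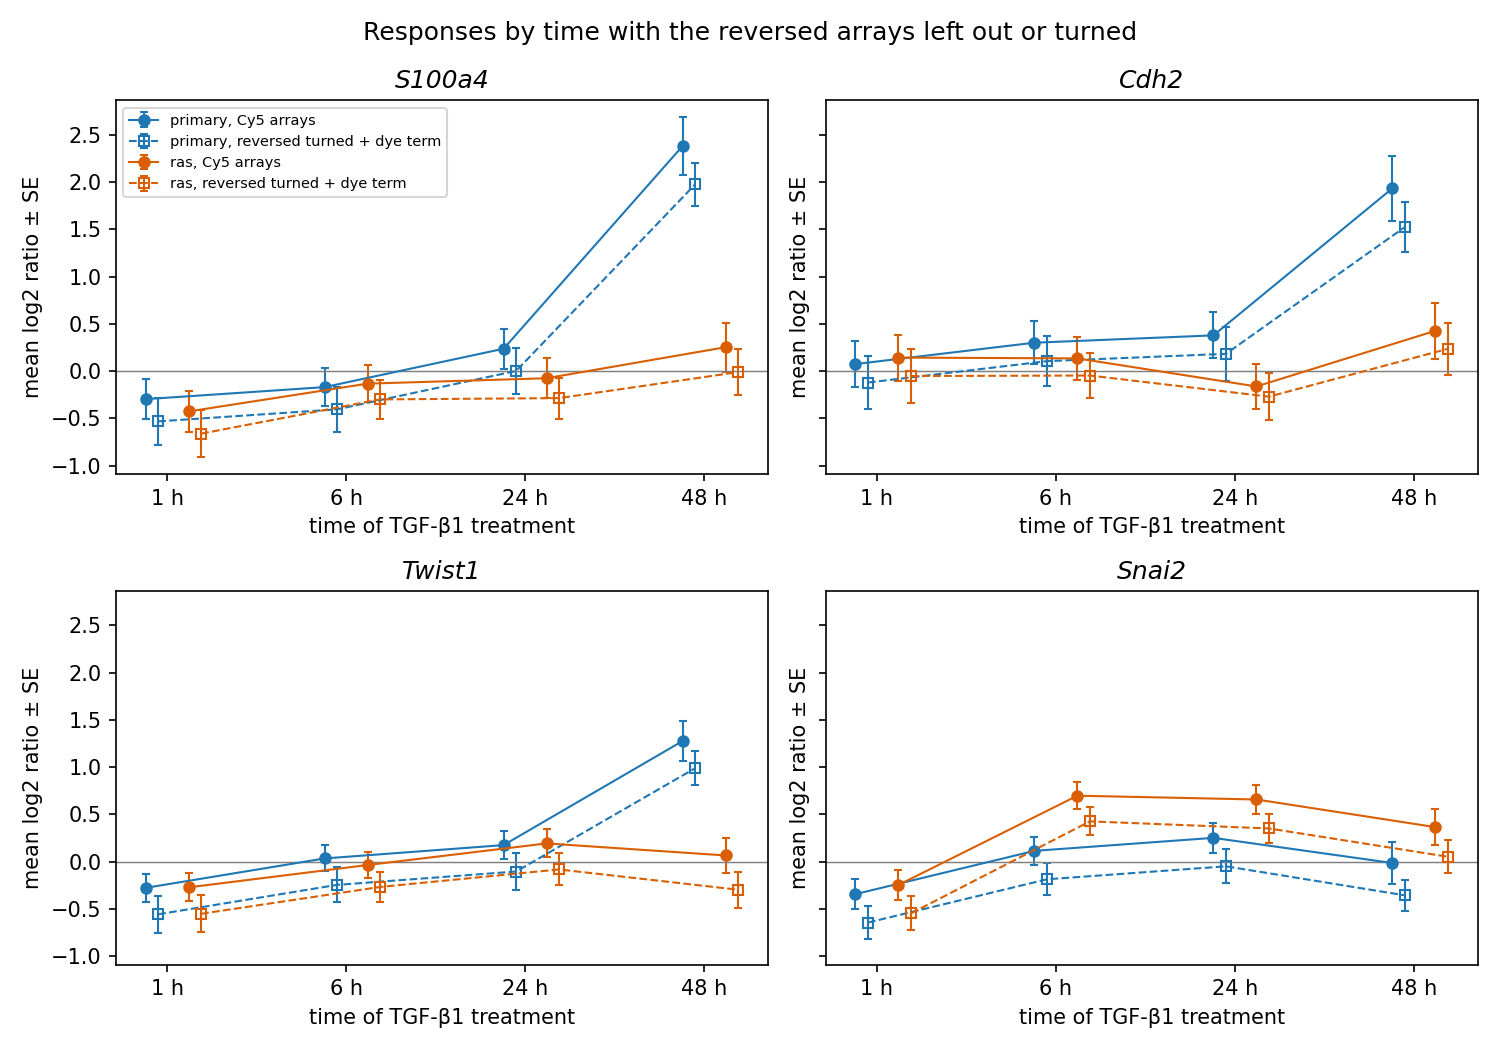
Mean log2 ratio ± SE (y axis) by time of treatment (x axis) in primary (blue) and ras (orange) Balb/c cells. Filled circles use the Cy5 arrays alone, and open squares add the 5 reversed Balb/c arrays with the sign turned and a dye term. S100a4, Cdh2 and Twist1 stand out at primary 48 h in both versions (1.98, 1.53 and 0.99 with the dye term), and Snai2 at ras 6 h is at 0.70 and 0.43.

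The cell types were set against each other to ask whether the oncogene altered the response. At 48 h the ras minus primary difference was -2.13 (SE 0.40) for S100a4, -1.51 (SE 0.45) for Cdh2, -1.21 (SE 0.28) for Twist1 and 0.38 (SE 0.29) for Snai2. The 48 h values served in choosing the genes and are given without a test. The ranges of the primary and ras arrays did not overlap for S100a4, Cdh2 and Twist1, each higher in primary cells, as for 4.1% of all features. They overlapped for Snai2.

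A bias towards 1 dye cancels in such a difference where it is constant, and with the reversed Balb/c arrays turned the differences were -1.99 for S100a4, -1.29 for Cdh2, -1.28 for Twist1 and 0.41 for Snai2. Experiment numbers in the labels fall into sets with the same leading digits, and at 48 h each of 3 such sets held Cy5 arrays of both cell types. Within them the difference for S100a4 was -1.99, -1.90 and -2.38. That for Cdh2 was -1.66, -1.27 and -1.32, and that for Twist1 was -1.69, -1.07 and -0.70. Snai2 was higher in ras cells within each, by 0.15, 0.42 and 0.49.

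At 24 h, a time that was tested, no difference between the cell types was called for the 4 genes, as for all but 0.0449% of features. Cdh2 differed by -0.54 (SE 0.34, limma adjusted p = 0.582) and S100a4 by -0.31 (SE 0.30, limma adjusted p = 0.768). Twist1 differed by 0.018 (SE 0.21, limma adjusted p = 0.991) and Snai2 by 0.41 (SE 0.22, limma adjusted p = 0.527). At 1 h, where 0% of all features differed by the test, the 4 differences had unadjusted limma p-values of 0.664 to 0.980. The higher Snai2 ratio of ras cells at 24 h was thus not shown to differ from that of primary cells. At 6 h, described without a test, Snai2 was 0.58 (SE 0.21) higher in ras than in primary cells, and within such sets of experiment numbers the difference ran from -0.14 to 1.20.

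Between 6 and 48 h in primary cells, S100a4 differed by 2.55, Cdh2 by 1.63, Twist1 by 1.24 and Snai2 by -0.13, again as a description. In ras cells the same differences were 0.39, 0.29, 0.10 and -0.33.

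Smad3, one of the transcription factors that carry the TGF-β signal to the nucleus, was absent in the knockout cells. There was 1 Cy5 array per genotype and cell type, so these values have no replicate check and no test. In primary cells at 48 h Cdh2 read 1.00 in Smad3+/+ and 0.54 in Smad3-/- cells, and Twist1 read 0.69 and 0.34. S100a4 read 0.57 and 0.47, and Snai2 read 0.97 and 1.28. All 8 values were positive, and those of S100a4, Cdh2 and Twist1 in wild type cells were below the lowest of the 3 Balb/c Cy5 arrays of the same time, though not below the reversed arrays as deposited.

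The reversed Smad3-/- array of primary cells read 0.43 for Cdh2, 0.55 for Twist1, 1.02 for S100a4 and 0.59 for Snai2 as deposited. All 4 genes were thus positive on both knockout arrays as deposited. In ras cells Cdh2 read 0.0105 and 0.27 in Smad3+/+ and Smad3-/- cells, S100a4 read -0.0465 and 0.001, and Twist1 read -0.62 and -0.22. Snai2 read 0.62 and 0.68, and was the highest of the 4 on the Cy5 arrays of both genotypes of ras cells. It was also the highest on the Smad3-/- Cy5 array of primary cells, at 1.28. On the reversed Smad3-/- array of ras cells, Snai2 was instead the lowest of the 4 as deposited, at 0.515. There Cdh2 read 0.668, S100a4 0.753 and Twist1 0.628.

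No knockout minus wild type difference of the 4 genes reached 1 on the log2 scale in either direction. The wild type ratios of these genes were themselves at most 0.996, for Cdh2 in primary cells. The loss of a whole rise would thus not have reached 1, and these differences do not show whether the responses need Smad3. The differences ran from -0.46 for Cdh2 to 0.30 for Snai2 in primary cells and from 0.0475 for S100a4 to 0.40 for Twist1 in ras cells. Differences past 1 were seen for 4.22% of features upwards and 8.86% downwards in primary cells, and for 2.98% and 5.44% in ras cells.

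Relatives of the 4 genes had calls in both directions in primary cells at 48 h, a time at which 8.6% of all features were called. Of 10 other measured cadherins, 0 were called higher (0 at an unadjusted limma p under 0.05) and 2 lower. Cdh3, the P-cadherin of basal keratinocytes, fell by 1.38 (-0.63, -2.23 and -1.28 on the 3 arrays), and Cdh13, an atypical cadherin without a cytoplasmic tail, fell by 1.10. Cdh13 was not called with the reversed Balb/c arrays turned and a dye term, at -0.57 (limma adjusted p = 0.0925). The reversed arrays read 1.49 and 0.95 for Cdh3 as deposited, and with them turned and a dye term its mean was -1.35.

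Cdh1, the E-cadherin of epithelial junctions, read -0.0105, 0.13 and -0.80 at primary 48 h and was not called, with a mean of -0.22 (SE 0.25, limma adjusted p = 0.679). Its reversed arrays read 1.62 and 1.22 as deposited. With these turned and a dye term the mean was -0.76 (SE 0.20, limma adjusted p = 0.00892), so the call for Cdh1 depends on how the reversed arrays are treated. In ras cells at 48 h, Cdh1 read 0.37, 0.74, 0.55 and 0.084, above 0 on all 4 arrays, and did not pass the test (limma adjusted p = 0.274).

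Of 9 other S100 genes, 1 was called at primary 48 h: S100a1 rose by 0.83. That call was lost with the reversed Balb/c arrays turned and a dye term, at 0.50 (limma adjusted p = 0.0626). S100a6 and S100a10, abundant relatives, had means of 0.28 and 0.27 and were not called. Of 13 other transcription factors linked to the mesenchymal change, 0 were called higher (2 at an unadjusted limma p under 0.05), and Gsc was called lower at -2.51 with an SD of 3.50 over its 3 arrays.

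Snai1, the closest relative of Snai2, read 0.87, 0.81 and 0.48 on the 3 Cy5 arrays of primary 48 h, a mean of 0.72 ± 0.21 (SD, n = 3, limma adjusted p = 0.492). Zeb1, a zinc finger repressor of epithelial genes, read 1.13, 0.72 and 1.23, a mean of 1.02 ± 0.27 (SD, n = 3, limma adjusted p = 0.683). Its relative Zeb2 read 0.57, 1.00 and 0.21, a mean of 0.59 ± 0.40 (SD, n = 3, limma adjusted p = 0.297). All 3 genes were above 0 on every Cy5 array of the group, as were 24.3% of features, and below 0 on both reversed arrays as deposited. The spread behind these p-values is shared over all groups and holds single arrays far from the rest, at 9.53 in primary 1 h and -9.24 in ras 24 h for Zeb1 and at -6.24 in ras 1 h for Snai1.

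Twist2, the closest relative of Twist1, had a mean of 1.01 with an SD of 2.72 and was not called (limma adjusted p = 0.159). Among 8 measured relatives of Twist1 and Id proteins, which bind and block basic helix-loop-helix factors, 2 were called at primary 48 h. Id1 fell by 1.99 and Id3 fell by 0.96. Id1 also fell by 1.42 in ras cells at 48 h (limma adjusted p = 0.0334), a call lost with the reversed Balb/c arrays turned and a dye term (limma adjusted p = 0.352). The lists of relatives and markers were drawn up with results of these arrays known, so their counts are descriptions.

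Of 24 other mesenchymal markers measured in primary cells at 48 h, 11 rose and 1 fell, a time at which 5.11% of all features were called higher and 3.49% lower. Their median was 0.75, against -0.046 over all features. Mmp9, a matrix protease, rose by 2.74, Bgn, the matrix proteoglycan biglycan, by 2.13 and Lox, the collagen cross-linking enzyme lysyl oxidase, by 1.90. Itgav, an integrin subunit, fell by 1.18. With the reversed Balb/c arrays turned and a dye term, 12 rose and 0 fell, with a median of 0.61.

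Ras cells at 48 h showed 6 rises and 0 falls among the same 24 markers, with a median of 0.44, against 1.9% called higher over all features. The 3 largest were Mmp9 at 1.81, Cdh11, a cadherin of mesenchymal cells, at 1.09 and the matrix glycoprotein gene Tnc at 0.93. With the reversed arrays turned and a dye term, limma called 0 of these 24 in ras cells at 48 h (6 higher at an unadjusted p under 0.05), where it called 0.494% of all features. At ras 6 h, when Snai2 was positive on every array, 4 rose and 0 fell, led by Tgfbi at 1.47, Itga5 at 0.75 and Acta2 at 0.66, against 1.73% of all features called. With the reversed Balb/c arrays turned and a dye term, limma called 0 of the 24 there (4 higher at an unadjusted p under 0.05).

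Of 31 epithelial junction and identity genes, 2 rose and 6 fell at primary 48 h, with a median of -0.22. Krt19, an epithelial keratin, fell by 1.80, Cdh3 by 1.38 and Ppl, the cornified envelope protein periplakin, by 1.12. Epcam, an epithelial adhesion molecule, rose by 1.28 and Cldn4, a tight junction claudin, by 0.84. In ras cells at 48 h, 2 rose, led by Cldn4 at 0.78, and 3 fell, led by Nectin1 at -0.88, against 3.5% of all features called. In the fit with turned Balb/c arrays and a dye term, 0 rose and 1 fell there, and at primary 48 h 2 rose and 7 fell.

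**Figure D3:**
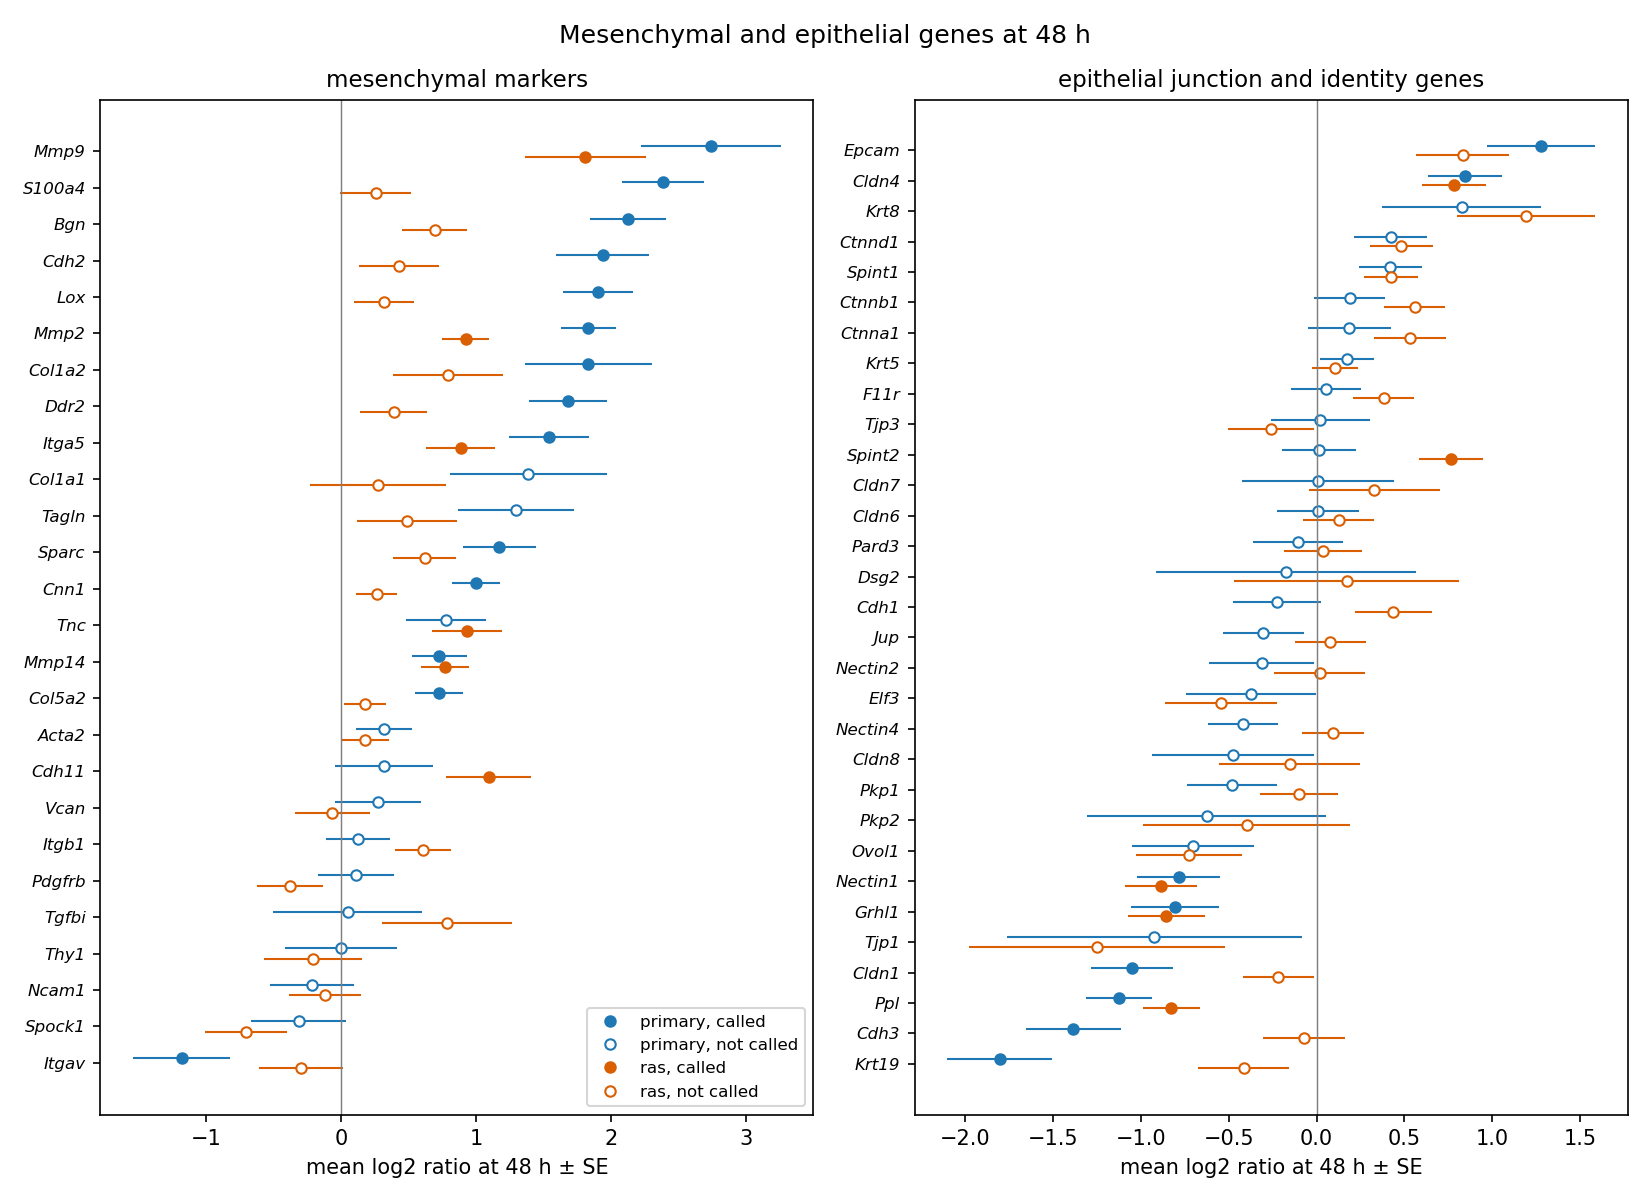
Mean log2 ratio at 48 h ± SE (x axis) of mesenchymal markers, with S100a4 and Cdh2 among them, and of epithelial genes (y axis), in primary (blue) and ras (orange) Balb/c cells over the Cy5 arrays. Filled points were called by limma, open points were not, and for S100a4 and Cdh2 at primary 48 h the fill is a description because that time served in choosing them. S100a4 (2.38) and Cdh2 (1.94) lie among the highest primary points, beside Mmp9 (2.74), Bgn (2.13) and Lox (1.90).

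Known targets of TGF-β and Smad factors were called most often at ras 6 h, with 8 of 17 higher and 0 lower, among them Tgfbi, Pdgfb at 1.45 and F3 at 1.41, against 1.73% of all features called. The fit with the reversed Balb/c arrays turned and a dye term called 2 of 17 higher there, Pdgfb at 1.29 and F3 at 1.17. At primary 48 h, 2 of 17 rose, Ltbp2, a latent TGF-β binding protein, by 2.07 and Skil, a Smad co-repressor, by 0.96, and in that fit the call of Skil was lost (0.46, limma adjusted p = 0.319).

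Some markers of other cell types that a keratinocyte culture can hold moved at the same time as S100a4, Cdh2 and Twist1, but most were not called. Of all features, 5.11% were called higher and 3.49% lower at primary 48 h. Of 16 fibroblast markers, 12 were above 0 at primary 48 h, with values from -0.66 to 1.83 and a median of 0.23. Among them 3 rose (5 higher at an unadjusted limma p under 0.05) and 0 fell. The rises were Col1a2 (1.83), Mfap5 (1.77) and Ddr2 (1.68), and 5 of the 16 genes are also among the mesenchymal markers. At ras 48 h, 8 of 16 were above 0, limma called 0 (0 at an unadjusted p under 0.05) and the median was -0.08. With the reversed Balb/c arrays turned and a dye term, 4 of the 16 rose and 0 fell at primary 48 h, with a median of 0.46. In that fit 0 were called at ras 48 h.

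Of 18 myeloid markers, 10 were above 0 at primary 48 h, 4 rose and 1 fell, with values from -2.23 to 2.58 and a median of 0.15. Lyz2, the lysozyme of macrophages, rose by 2.58, Ctss, a lysosomal protease, by 1.68 and Tyrobp, an immune adaptor, by 1.01, while Spi1, a myeloid transcription factor, fell by 2.23 with an SD of 3.86. With the reversed Balb/c arrays turned and a dye term, 4 rose and 0 fell, and 8.21% of all features were called. At ras 48 h, 6 of 18 were above 0 and Lyz2 alone was called, at 0.96, a call lost in that fit (0.45, limma adjusted p = 0.578). Lymphocyte markers gave 0 rises and 1 fall among 11 at primary 48 h, the fall being lost in that fit, and 5 melanocyte and 8 endothelial markers gave 0 calls by limma (0 and 1 at an unadjusted p under 0.05). S100a4 and Cdh2 are also expressed by fibroblasts, and S100a4 by macrophages. The part of such cells in the ratios of S100a4, Cdh2 and Twist1 was not tested.

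Over the 45 Balb/c Cy5 arrays, the genes most like each of the 4 were ranked by Pearson's r among all named genes, a description over arrays that share cells and dye orientation. For S100a4 they were Crabp1 (0.89), Ddah1 (0.86), Mxra8 (0.82), Bgn (0.81) and F2r (0.81). For Cdh2 they were Srpx2 (0.83), Ctss (0.82), Slit3 (0.81), Plekho2 (0.81) and Kdelr3 (0.79). For Twist1 they were Lyz2 (0.80), Ltbp2 (0.79), Fkbp7 (0.77), Maged2 (0.73) and S100a4 (0.71). All 14 genes other than S100a4 in these 3 sets had means of 0.83 to 2.58 at primary 48 h, with Ctss and Lyz2 from the myeloid list among them. The primary 48 h arrays enter r, so high means at that time follow in part from the ranking. By Spearman's correlation the ranks in these sets ran from 2, for Slit3 with Cdh2 and Lyz2 with Twist1, to 115, for Mxra8 with S100a4.

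Snai2 kept other company: Pdlim1 (0.80), Rnd3 (0.79), Atp6v1e1 (0.77), F11r (0.75) and Psme1 (0.75). Pdlim1, a cytoskeletal adaptor, had a mean of 0.71 at ras 6 h and -0.25 at primary 48 h, close to the 0.70 and -0.01 of Snai2. F11r, a tight junction adhesion molecule, is on the epithelial list.

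Among the 4 genes themselves, r over 45 arrays was 0.71 for S100a4 with Twist1, 0.54 for Cdh2 with Twist1 and 0.53 for Cdh2 with S100a4. Without the 3 primary 48 h arrays these were 0.42, 0.22 and 0.098 over 42 arrays. The likeness of Cdh2 to S100a4 thus rested on those 3 arrays. Snai2 with S100a4 went the other way, from 0.17 over 45 arrays to 0.44 over 42, and Snai2 with Cdh2 was -0.27 and -0.24.

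**Figure D4:**
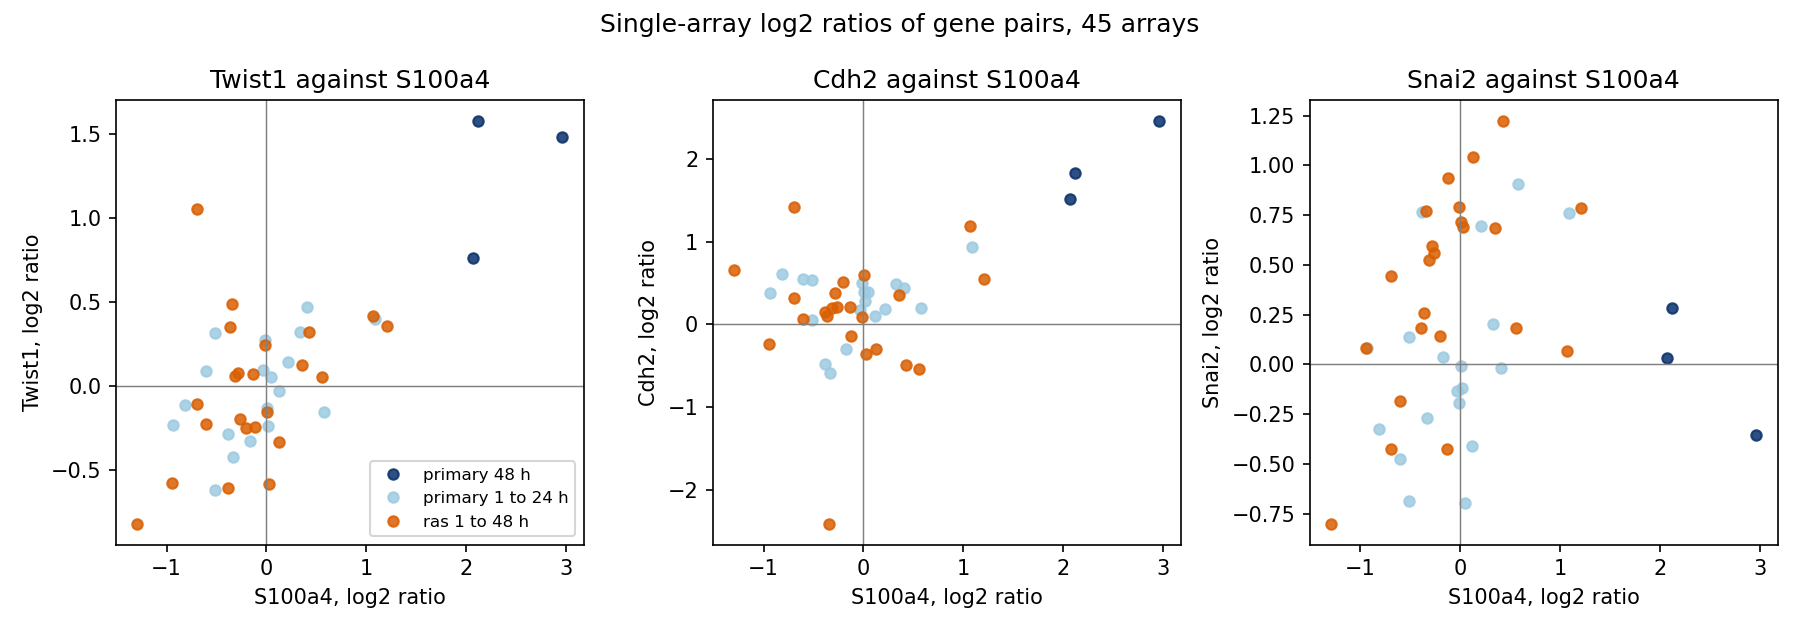
Log2 ratio of Twist1, Cdh2 and Snai2 (y axes) against that of S100a4 (x axis), 1 point per Balb/c Cy5 array, in primary cells at 48 h (dark blue), primary cells at 1 to 24 h (light blue) and ras cells (orange). The 3 dark points lie apart at the upper right for Twist1 and Cdh2, and without them r falls from 0.71 to 0.42 and from 0.53 to 0.098. For Snai2 they lie near 0 on the y axis.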

How the data were processed

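Labelled RNA was hybridised to 2-colour arrays, and the deposited value is 1 log2 ratio per probe and array (9596 probes, 56 arrays, 0 missing). For these deposited log2 values the log base, scanning, background correction and normalization were not given in the sources used here, and log2 was taken. Array medians lay between -0.146 and 0.02. Spot brightness was not used, so dim spots could not be set apart. Both the number of arrays and the noise of single spots limit the precision.

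Of the probes, 7486 had 1 gene symbol in the platform annotation, 483 several and 1627 none listed; 7395 matched RefSeq. Probes of 1 symbol were averaged, giving 8905 features. Arrays were centred on their probe median and all groups fitted together with limma 3.58.1 in R 4.3.3 (lmFit, eBayes), two-sided, on 49 Cy5 arrays, after the code was tested on simulated data.

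The 4 genes, the lists and the settings were chosen with earlier results of these data known. Named are the 4 genes, their nearest relatives, the 5 most correlated genes of each, and at most the 3 largest called rises and falls of a list. Clu, Csf1, Sprr2a1 and Fabp5 are named for the sign of the reversed arrays alone. Replicate numbers were not taken to pair the arrays: same-numbered groups correlated at -0.23 to 0.39, over 0.1 in 5 of 19 pairs. These values alone do not show whether the numbers pair arrays.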

Additional observations from a re-analysis of the deposited data

How the results depend on the processing

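Of 1287 values recomputed under alternative settings for the 4 genes, 1256 kept their side of the threshold or moved by less than the spread between arrays. Uncalled values that changed sign are counted among them, such as Cdh2 at ras 24 h, at -0.16 and, without the 2 widest arrays, at 0.29. A called direction was reversed in 0 values. With the reversed arrays added as deposited, primary 48 h came to 0.836 for S100a4, 0.757 for Cdh2 and 0.488 for Twist1, and ras minus primary at 48 h to -0.56, -0.43 and -0.25; opposite signs on the reversed arrays enter these means by construction. The call of Snai2 at ras 24 h, and with it the count of 1 gene called, was lost (0 called) with arrays scaled to 1 median absolute deviation (0.549), with its arrays fitted alone (0.658), with the 5 reversed Balb/c arrays turned and a dye term (0.352) and with all 7 turned and a dye term (0.281). In these last fits Snai2 at ras 6 h was 0.427 and 0.353. Array weights gave 2 calls at primary 24 h (Cdh2 and Twist1) in place of 0, in a fit that called 835 of 8905 features there. Leaving out 1 array in turn kept the call of Snai2 at ras 24 h (0.545 to 0.762), and primary 48 h ranged from 2.09 to 2.54 for S100a4, 1.67 to 2.14 for Cdh2 and 1.12 to 1.53 for Twist1. The replicate block, for numbers that were not taken to pair the arrays, gave 0.648 for Snai2 at ras 24 h and kept its call. Over all features, calls at ras 24 h numbered 936, 300 with scaled arrays, 562 with array weights, 316 without the 2 widest arrays, 448 with the block and 109 with the 5 turned arrays and a dye term; the cause was not tested. Brightness was not used, so a floor on dim spots could not be set.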
